A study of Mus musculus with 6 samples.

Results

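The genes described here encode subunits and assembly factors of the mitochondrial respiratory chain and ATP synthase. They were chosen by symbol alone: every gene whose symbol starts with Nduf, Uqcr, Cox4 to Cox8 or Atp5, plus Sdha, Sdhb, Sdhc and Sdhd, measured by a probe set that carries exactly 1 gene symbol. The rule found 89 genes among 19938 tested, with 41 in complex I, 4 in complex II, 8 in complex III, 19 in complex IV and 17 in complex V. Expression was measured on Affymetrix arrays in mouse B cell precursors transformed by BCR-ABL1, a fusion tyrosine kinase that drives a form of acute lymphoblastic leukaemia. Of the 6 arrays, 3 came from cells of Dusp6 wild-type mice (Dusp6 WT) and 3 from cells of Dusp6 knockout mice (Dusp6 KO), and both groups carry BCR-ABL1 and the C57Bl/6-SV129j background. The sources used here do not give the age of the mice, the part of Dusp6 that was deleted, or whether arrays of a genotype came from separate animals, cultures or clones. The p-values therefore measure only the spread between these arrays, which may be technical. Bulk arrays cannot tell fewer cells of a type from less RNA per cell.

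Complexes I to IV pass electrons from NADH and succinate to oxygen, and complexes I, III and IV pump protons across the inner mitochondrial membrane as they do so. Complex V, the ATP synthase, lets the protons flow back through its membrane part, Fo, and makes ATP in its catalytic head, F1. Nearly all subunits are encoded in the nucleus and must be built together with a small core made inside the mitochondrion. Dusp6 is a phosphatase that inactivates the kinase ERK, and the comparison asks which of these transcripts differ in transformed cells without it.

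Dusp6 itself was 10.3-fold lower on the knockout arrays (log2 signals of 12.36, 12.46 and 12.49 against 9.04, 9.06 and 9.15, with an SD of 0.0721 over the 3 wild-type and 0.0582 over the 3 knockout arrays). The cells carried the markers of precursor B cells: all 13 measured markers lay above the median signal of all genes (8.62), with Igll1, a surrogate light chain gene of the pre-B cell receptor, at 14.52 and Cd79a, a B cell receptor signalling chain, at 13.88 in wild type. These markers were not all equal between genotypes, with 5 lower and 1 higher in knockout by limma, led by the polymerase gene Dntt (−1.42). Over all genes 10.2% were lower and 9.66% higher. In the fit of genes at or above the median signal 7 of the 13 were called, against 39.9% of all genes. Their summed linear signal ran from 132056 to 132454 on the wild-type arrays and from 124439 to 125711 on the knockout arrays. Below that median lay 9 of 10 myeloid and mast cell, 7 of 7 T and NK cell and 2 of 2 erythroid markers. Of the 5 stromal and endothelial markers, by contrast, 1 lay below it, and Pecam1 read 10.73 in wild type and 11.24 in knockout. In these lists Lyz2 (by 0.70) and Pecam1 (by 0.51) rose and 0 genes fell by limma (0 also at an unadjusted p under 0.05, where 2 T and NK cell markers were higher). Without wild-type replicate 3, 1 more myeloid and mast cell marker and 1 T and NK cell marker were called, where 16.1% of all genes were. The summed linear signal of the myeloid and mast cell list was 1875 to 1930 in wild type and 2171 to 2289 in knockout, and that of the stromal and endothelial list 3404 to 3533 and 4147 to 4261. These sums do not show a list-wide rise. Apart from Lyz2 the myeloid and mast cell markers differed by −0.11 to 0.05. Apart from Pecam1 the stromal and endothelial markers differed by 0.00 to 0.05. The part of these markers in the results below was not tested, and no array signal is at 0.

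The respiratory chain and ATP synthase genes did not move as a block. By limma at an adjusted p under 0.05, 6 of the 89 were higher without Dusp6, 10 were lower and 73 were not called. That is 18% of them, against 19.8% of all genes tested. Most of the 89 are bright, with 84 at or above the median signal. In the fit of such genes 22 of the 84 were called (26.2%), below the 39.9% of all genes. By direction, 9.66% of all genes rose and 10.2% fell. The differences were small: all 89 lay between −0.37 and 0.54 on the log2 scale, and 0 reached 2-fold, which 1.29% of all genes did. Their median was −0.031, beside 0.002 for all genes, and 54 of the 89 had a difference below 0 (60.7%, against 49.2% of all genes). The 2 genotypes were separate on the arrays for 32 genes, with knockout lower in 22 and higher in 10, whereas 35.7% of all genes were separate, 18.4% with knockout lower and 17.3% with knockout higher. For 64 of the 89, the 95% interval of the difference stayed within 0.25 of 0, a band of 1.19-fold either way (69.1% of all genes). The number that fell depended on single arrays: it was 4 without wild-type replicate 1, 6 without wild-type replicate 2 and 5 without knockout replicate 2, where 7.58%, 7.64% and 7.99% of all genes fell. The number that rose was 9 without knockout replicate 2 (8.29% of all genes), and 6 or 7 without each of the other arrays.

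**Figure D1:**
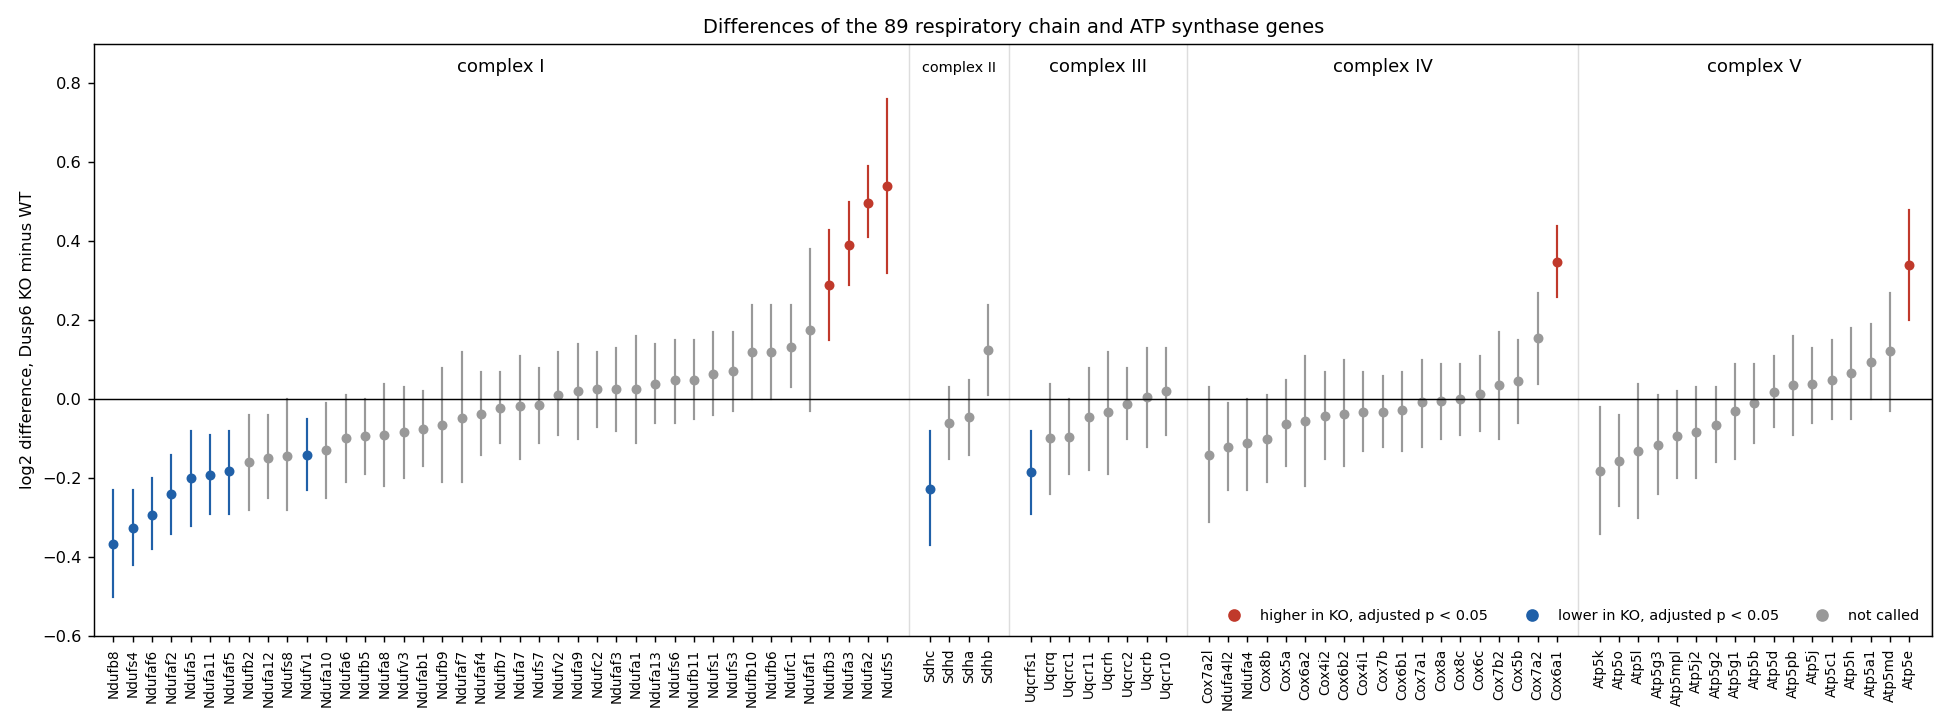
Log2 difference (knockout minus wild type) of each of the 89 genes, grouped by complex, with 95% intervals as vertical lines and red or blue marking genes called higher or lower. Complex I holds 41 of the 89 genes and 12 of the 16 calls, a share of 29.3% called against 19.8% of all genes. That share was not above the share of all genes once dimmer genes, those below the median signal, were left out. Complex I then had 15 calls in 40 genes, and 39.9% of all genes tested were called.

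Knockout replicate 2 stood apart for these genes. Averaged over the 89, its signal lay 0.059 below the wild-type mean, whereas knockout replicates 1 and 3 lay 0.001 and 0.010 above it and the wild-type arrays between −0.007 and 0.013. It held the lowest of the 3 knockout values in 57 of the 89 genes (64.0%), compared with 44.3% of all genes tested. Over all genes its mean deviation was −0.012. The complexes shared this feature: its mean deviation was −0.051 for complex I, −0.119 for complex II, −0.112 for complex III, −0.043 for complex IV and −0.057 for complex V. The median difference of the 89 genes was −0.016 without it (all genes 0.010). Leaving out wild-type replicate 1 brought that median nearer to 0, to −0.010 (all genes −0.002), and leaving out each of the other arrays gave −0.044 to −0.028.

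**Figure D2:**
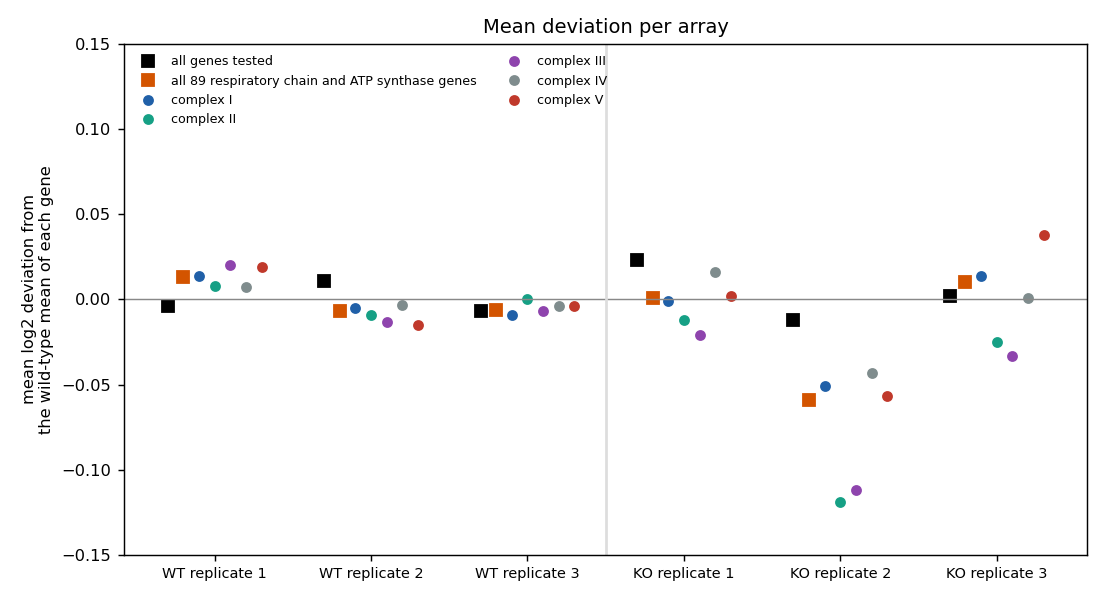
Mean log2 deviation from each gene's wild-type mean, on each of the 6 arrays, for all genes tested (black squares), the 89 genes (orange squares) and complexes I to V (circles). Knockout replicate 2 is the lowest array for the 89 genes, at −0.059, and for each complex.

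In complex I, 4 of 41 genes rose and 8 fell, which is 29.3%, against 19.8% of all genes. This contrast depended on the dim genes in the background. With every gene below the median signal left out, complex I had 15 calls in 40 genes. The share of all genes called was then 39.9%, so complex I did not exceed it. In that fit complex II had 1 call in 4 genes, III 1 in 8, IV 2 in 15 and V 3 in 17. With dim genes kept, 2 of 48 rose and 2 fell in complexes II to V together, where 9.66% of all genes rose and 10.2% fell. The single call was a fall in complex II (1 of 4) and in complex III (1 of 8), and a rise in complex IV (1 of 19) and in complex V (1 of 17). Single arrays moved these counts too, in fits that called 15.1% to 18.5% of all genes: complex II gave 0 without wild-type replicate 1 or 3 or knockout replicate 3, and complex III gave 0 without wild-type or knockout replicate 1 or 2. Without knockout replicate 2 complex IV gave 2, with Cox7a2 added (0.20, adjusted p = 0.024), and the call in complex II was a rise of Sdhb instead of the fall of Sdhc. Without knockout replicate 1 complex V gave 2, with Atp5k, a membrane subunit, added (−0.25, adjusted p = 0.024). Complex I gave 8 calls without wild-type replicate 1, and 9 to 12 without each of the other arrays. The median differences were −0.021 for complex I, −0.053 for II, −0.039 for III, −0.031 for IV and −0.009 for V. With single arrays left out, the median of complex V was above 0 without wild-type replicate 3 (0.002), knockout replicate 1 (0.012) or knockout replicate 2 (0.002) and −0.028 to −0.003 otherwise. The medians of the others stayed below 0, from −0.033 to −0.007 for complex I, −0.064 to −0.040 for II, −0.076 to −0.017 for III and −0.028 to −0.012 for IV. The members of a complex were also spread around these medians. The standard deviation of the differences was 0.194 in complex I, 0.143 in II, 0.0681 in III, 0.110 in IV and 0.127 in V, while the median standard error of a single difference was 0.0457 to 0.0511 in each. No test was made between complexes, because genes of a complex are not replicates. Median signals were high in all of them, at 11.58 (complex I), 12.05 (II), 11.90 (III), 11.63 (IV) and 13.10 (V). They compare with 8.62 for all genes and a highest value of 14.8 on any array. Complex IV is mixed in this respect. Its 8 tissue-restricted isoforms had a median signal of 8.4 and 0 calls, and its 10 widely expressed subunits a median of 12.76 and 1 call.

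Complex I oxidises NADH in its peripheral arm and pumps protons in its membrane arm. The genes that rose included one accessory subunit of the peripheral arm and 3 of the membrane arm. Ndufs5, an accessory subunit of the membrane arm, had the largest difference of all 89 genes. Its signals were 9.99, 9.67 and 10.03 in wild-type replicates 1 to 3 and 10.51, 10.30 and 10.51 in the knockout replicates, a difference of 0.54 ± 0.0974 (SE; 1.45-fold, limma adjusted p = 0.0036). The groups did not overlap, but replicate 2 was the low array of each genotype, so the interval ran from 0.32 to 0.76. Ndufa2, an accessory subunit of the NADH-oxidising part, was measured more tightly. It read 11.42, 11.38 and 11.39 in wild type and 11.88, 11.87 and 11.92 in knockout, a difference of 0.50 ± 0.0402 (SE, adjusted p = 2e-05). Ndufa3, in the membrane arm, read 11.60, 11.60 and 11.51 against 11.99, 11.98 and 11.92 (0.39 ± 0.0461, adjusted p = 0.00024). Ndufb3, a subunit of the far end of the membrane arm, read 9.59, 9.41 and 9.55 against 9.72, 9.82 and 9.88 (0.29 ± 0.0622, adjusted p = 0.0095), where the highest wild-type and lowest knockout arrays were close.

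The complex I genes that fell were spread over both arms and the assembly factors. Ndufb8, an accessory subunit of the membrane arm, read 11.58, 11.48 and 11.45 in wild type and 11.22, 11.03 and 11.16 in knockout (−0.37 ± 0.0599, adjusted p = 0.0021). Ndufs4, a peripheral arm subunit whose loss causes a severe complex I deficiency in mice and people, read 12.81, 12.82 and 12.81 against 12.52, 12.45 and 12.49 (−0.32 ± 0.0413, adjusted p = 0.00041). The wild-type arrays were almost identical for Ndufs4, and all 3 knockout arrays lay well below them. Of the 7 assembly factors among the members, which help to build the complex but are not part of it, 3 fell and 0 rose by limma (3 and 0 at an unadjusted p under 0.05). Over all genes 10.2% fell and 9.66% rose by limma. Ndufaf6 read 9.75, 9.72 and 9.77 against 9.48, 9.44 and 9.45 (−0.29 ± 0.0401, adjusted p = 0.00065). Ndufaf2, which resembles the subunit Ndufa12, read 9.36, 9.42 and 9.32 against 9.08, 9.16 and 9.13 (−0.24 ± 0.0450, adjusted p = 0.0046). Neither pair of groups overlapped.

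The remaining falls in complex I were smaller and less stable. Ndufa11 of the membrane arm fell by 0.19 (adjusted p = 0.014), Ndufa5 of the quinone-binding part by 0.20 (0.028), the assembly factor gene Ndufaf5 by 0.18 (0.024) and Ndufv1, the core subunit that binds FMN and takes electrons from NADH, by 0.14 (0.041). With single arrays left out, Ndufa11 lost its call in 1 of 6 fits (without wild-type replicate 1, adjusted p = 0.055). Ndufa5 kept its call only without knockout replicate 1 or 3 (adjusted p of 0.055 to 0.095 in the other fits), Ndufaf5 only without wild-type replicate 3 (0.057 to 0.082), and Ndufv1 in none (0.052 to 0.12). The partner of Ndufv1 in the flavin module, Ndufv2, an iron-sulfur core subunit, had the smallest difference in the complex (0.01, interval −0.09 to 0.12). Among the 15 peripheral arm subunits 1 rose and 3 fell, and among the 19 membrane arm subunits 3 rose and 2 fell. That is 26.7% and 26.3% called, against 19.8% of all genes. The arms were not counted separately in the fit of genes at or above the median signal, where 39.9% of all genes were called. Calls in the same structural part were in both directions: Ndufs5, Ndufa3 and Ndufb3 rose while Ndufb8 and Ndufa11 fell in the membrane arm, and Ndufa2 rose while Ndufs4 fell in the peripheral arm. Just past the threshold lay Ndufa12 (−0.15, adjusted p = 0.051), Ndufb2 (−0.16, 0.076) and Ndufc1 (0.13, 0.087).

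**Figure D3:**
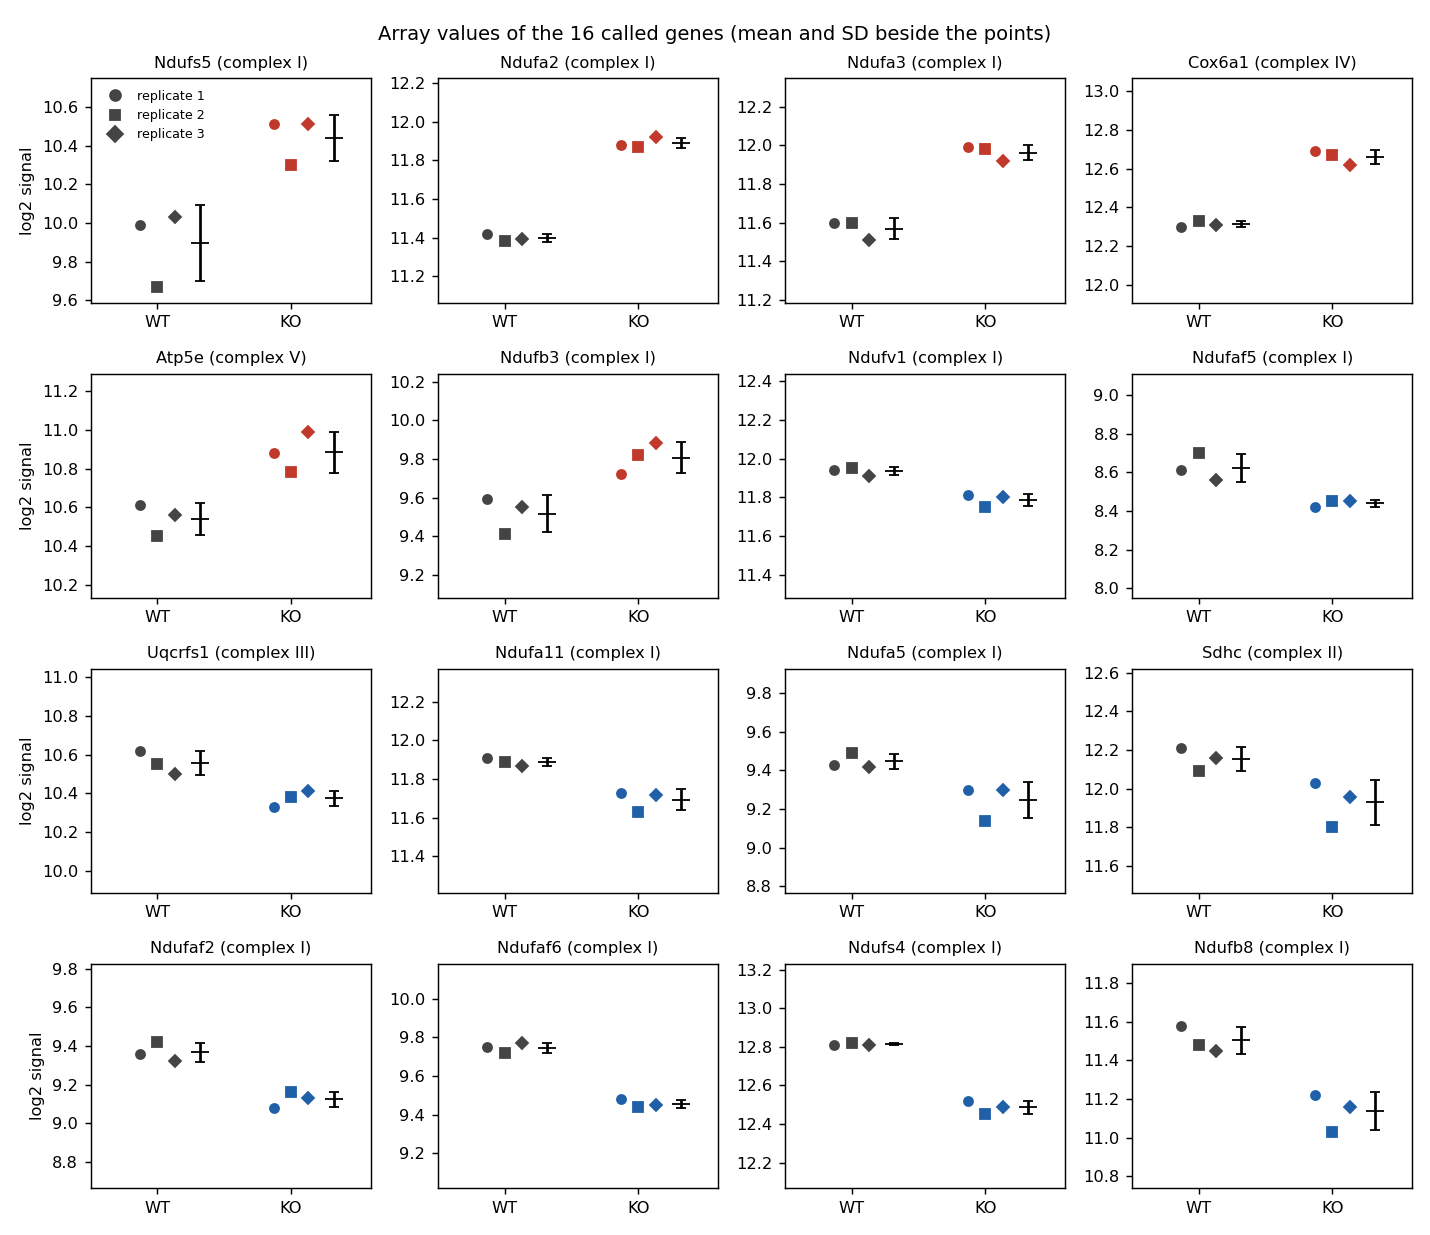
Log2 signal on each array for the 16 called genes, with wild-type arrays in grey, knockout arrays in red (rose) or blue (fell), 1 marker shape per replicate number, and the mean with its SD (n = 3) to the right of the points. All panels span the same range of log2 units. The wild-type and knockout values of each of the 16 genes do not overlap, which holds for 35.7% of all genes. The 16 were selected on these same arrays, so the lack of overlap is not a separate result.

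Complex II, succinate dehydrogenase, also belongs to the citric acid cycle. Sdhc, one of its membrane anchors, was its called gene. It read 12.21, 12.09 and 12.16 in wild type and 12.03, 11.80 and 11.96 in knockout (−0.23 ± 0.0633, adjusted p = 0.033). Its lowest value was on knockout replicate 2, and its adjusted p was 0.087 without that array, 0.11 without wild-type replicate 1, 0.082 without wild-type replicate 3 and 0.067 without knockout replicate 3. The other anchor, Sdhd, differed by −0.06 and the flavoprotein Sdha by −0.05 (interval −0.14 to 0.05). The iron-sulfur subunit Sdhb differed by 0.12 (adjusted p = 0.12), and by 0.17 without knockout replicate 2, where it was called (adjusted p = 0.045).

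Complex III passes electrons from ubiquinol to cytochrome c. Uqcrfs1, the Rieske iron-sulfur protein, read 10.62, 10.55 and 10.50 in wild type and 10.33, 10.38 and 10.41 in knockout (−0.19 ± 0.0468, adjusted p = 0.021). The groups were separate but close, and the call was lost on leaving out any of wild-type replicates 1 and 2 and knockout replicates 1 and 2 (adjusted p from 0.054 to 0.087). The other 7 subunits lay between −0.10 and 0.02. The core subunit Uqcrc2 was among the most even, with signals of 13.59, 13.58 and 13.59 against 13.57, 13.59 and 13.57, and Uqcrb differed by 0.01 (interval −0.12 to 0.13). Cyc1, the cytochrome subunit of the complex whose symbol lies outside the rule, differed by −0.10 (adjusted p = 0.21).

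Complex IV reduces oxygen, and many of its subunits exist as widely expressed and tissue-restricted isoforms. Cox6a1, the widely expressed form of subunit 6A, was its called gene and read 12.30, 12.33 and 12.31 in wild type and 12.69, 12.67 and 12.62 in knockout (0.35 ± 0.0408, 1.27-fold, adjusted p = 0.00024). Each group was tight and the gap between them was several times the spread within them. Its heart and muscle paralog Cox6a2 differed by −0.06 (interval −0.22 to 0.11). The 8 tissue-restricted isoforms had a median signal of 8.4, near the median of all genes, and lay between −0.12 and 0.04. In that list limma called 0 (0 higher and 1 lower at an unadjusted p under 0.05). Of the 10 widely expressed subunits the next largest difference was that of Cox7a2 (0.16, adjusted p = 0.057). Cox8a differed by −0.01, Cox8b by −0.10 and Cox8c by 0.00.

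In the ATP synthase, Atp5e, the epsilon subunit of the F1 central stalk, was the called gene. Its signals were 10.61, 10.45 and 10.56 in wild type and 10.88, 10.78 and 10.99 in knockout (0.34 ± 0.0641, 1.27-fold, adjusted p = 0.0046). The other 4 F1 subunits lay between −0.01 and 0.10, with the catalytic beta subunit Atp5b at −0.01 (interval −0.11 to 0.09) and signals of 14.34, 14.29 and 14.35 against 14.28, 14.34 and 14.34. The ranges of the genotypes overlapped. Atp5b lies near the top of the signal range, where the response of the arrays was not tested. Of the 12 Fo, stalk and accessory subunits limma called 0 (0 higher and 2 lower at an unadjusted p under 0.05), with a median difference of −0.074 and the stalk subunit Atp5o at −0.16 (adjusted p = 0.059). The genes Atp5g1, Atp5g2 and Atp5g3, which encode the same proton-carrying c subunit, differed by −0.03, −0.07 and −0.12, and for none was an interval wholly below 0.

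Of the 16 called genes, 10 kept the call and direction in all 6 fits with 1 array left out and in every other alternative. They were the 6 that rose (Ndufs5, Ndufa2, Ndufa3, Ndufb3, Cox6a1 and Atp5e) and 4 of the 10 that fell (Ndufb8, Ndufs4, Ndufaf6 and Ndufaf2). Several members are covered by more than 1 probe set, up to 6 for Atp5l, and RefSeq lists 19 pseudogenes whose symbols fit the rule, and probes may also bind transcripts of near-identical copies, which was not tested. In the 17 members with several probe sets, the sets of a gene differed by at most 0.11, and in all but 3, Atp5pb, Cox6c and Uqcrb, they had the same sign. Those exceptions lay within 0.04 of 0 on each set.

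Genes that serve the chain but lie outside the symbol rule were compared in the same way, from lists drawn up by function. The lists were made with earlier results of these data known, so their shares of calls are descriptions only. The 19.8% of all genes called includes dim genes. In the fit of genes at or above the median signal the share was 39.9%. The coactivator gene Ppargc1a, which encodes PGC-1alpha, known for driving respiratory chain transcription in muscle, liver and brown fat, had by far the largest difference. Its signals were 9.60, 9.55 and 9.61 in wild type and 6.84, 7.07 and 7.08 in knockout, which means that it fell by 2.59 on the log2 scale (6.04-fold, SE 0.0659, limma adjusted p = 7e-09). These values come from the probe set with the higher mean, 1 of 2 for this gene. Suclg2, Uqcc2 and Higd1a, given below, also have 2 probe sets each. The knockout signal lay below the 25th percentile of genes (7.45) and was not tested against background. Of the 19 regulators of mitochondrial biogenesis and mitochondrial DNA expression, 4 fell and 0 rose by limma (7 and 1 at an unadjusted p under 0.05), with a median of −0.093. That is 21.1% called, near the 19.8% of all genes. Of the 18 regulators at or above the median signal 7 were called in the fit of such genes, against 39.9%. Nrf1, a transcription factor of many nuclear respiratory genes, fell by 0.24 (adjusted p = 0.0098). Ppargc1b and Gabpb1 fell by 0.15 and 0.13 and lost their calls under most left-out arrays, so that 2 of the 19 were called without wild-type replicate 1, 2 or 3 or knockout replicate 2. The partner factors Esrra (0.12, adjusted p = 0.10), Gabpa (−0.07) and the mitochondrial transcription factor gene Tfam (−0.09) were not called.

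Assembly factors outside the rule held calls in both directions. For complex I, 4 of 10 rose and 2 fell (60.0% called, against 19.8% of all genes), with a median of 0.108. In the fit of genes at or above the median signal 7 of the 10 were called, against 39.9% of all genes. Acad9, an assembly factor related to acyl-CoA dehydrogenases, fell by 0.49 ± 0.0520 (SE) and Nubpl, which delivers iron-sulfur clusters, fell by 0.45 ± 0.0617. Partners of Acad9 in the same assembly complex went the other way: Timmdc1 rose by 0.27, Tmem126b by 0.18 and Ecsit by 0.17, and Foxred1, another factor, rose by 0.24. For complexes II to V, 3 of 32 rose and 6 fell (28.1% called, against 19.8% of all genes), with a median of −0.037. Without wild-type replicate 3, 5 were called in all. In the fit of genes at or above the median signal 11 of 29 were called, against 39.9% of all genes. Coa3, which guides the making of the mitochondrial Cox1 subunit of complex IV, read 11.62, 11.50 and 11.56 in wild type and 10.92, 10.88 and 11.07 in knockout (−0.60 ± 0.0591). Uqcc1 and Uqcc2, partners in making cytochrome b of complex III, rose by 0.30 and 0.54. Coa5 rose by 0.24, and the ATP synthase assembly genes Atpaf1 and Atpaf2 each fell by 0.18.

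Coenzyme Q, the lipid that carries electrons from complexes I and II to III, is made by the Coq enzymes. Of 12 measured genes of its synthesis 4 fell and 1 rose (41.7% called, against 19.8% of all genes). In the fit of genes at or above the median signal 6 of the 12 were called, against 39.9% of all genes. Of the 12 differences 10 lay below 0, and the median was −0.118. Coq5 fell by 0.29, Coq4 by 0.28 and Coq9 by 0.25, whereas Coq8a, an atypical kinase, rose by 0.28. In the citric acid cycle and pyruvate dehydrogenase 3 of 17 rose and 3 fell (35.3% called, against 19.8% of all genes, median −0.008). All 17 lay at or above the median signal, and 6 of them were called in the fit of such genes. That fit called 39.9% of all genes, so this list did not exceed it. Suclg2, a subunit of succinyl-CoA ligase, read 10.80, 10.70 and 10.79 in wild type and 11.25, 11.48 and 11.36 in knockout (0.60 ± 0.0617), and the pyruvate dehydrogenase subunit gene Pdhb rose by 0.24. Pdhx and the fumarase gene Fh1 fell by 0.26 and 0.24. The 8 genes of ATP export, phosphate import and ATP synthase inhibition stayed between −0.05 and 0.06, with 0 called by limma and 0 at an unadjusted p under 0.05. Vdac2, the outer membrane channel with the smallest p among them, differed by −0.05 (interval −0.15 to 0.05). Of 10 cristae organisation genes 2 fell, Chchd6 (−0.22) and Apool (−0.19). At 20% called that is near the share of all genes, and 1 of the 10 was called without wild-type replicate 1 or 2. In the fit of genes at or above the median signal 3 of the 10 were called, against 39.9% of all genes. In a list of 8 electron carriers and further genes of complexes III and IV limma called 0 (2 higher and 0 lower at an unadjusted p under 0.05). Of these Higd1a, which is not a carrier, differed by 0.22 (adjusted p = 0.054). It was called without wild-type replicate 3 or knockout replicate 1. For the 2 mitochondrial DNA genes measured, ND3 and COX2, the differences were 0.12 and 0.06, and limma called 0 (1 higher at an unadjusted p under 0.05).

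**Figure D4:**
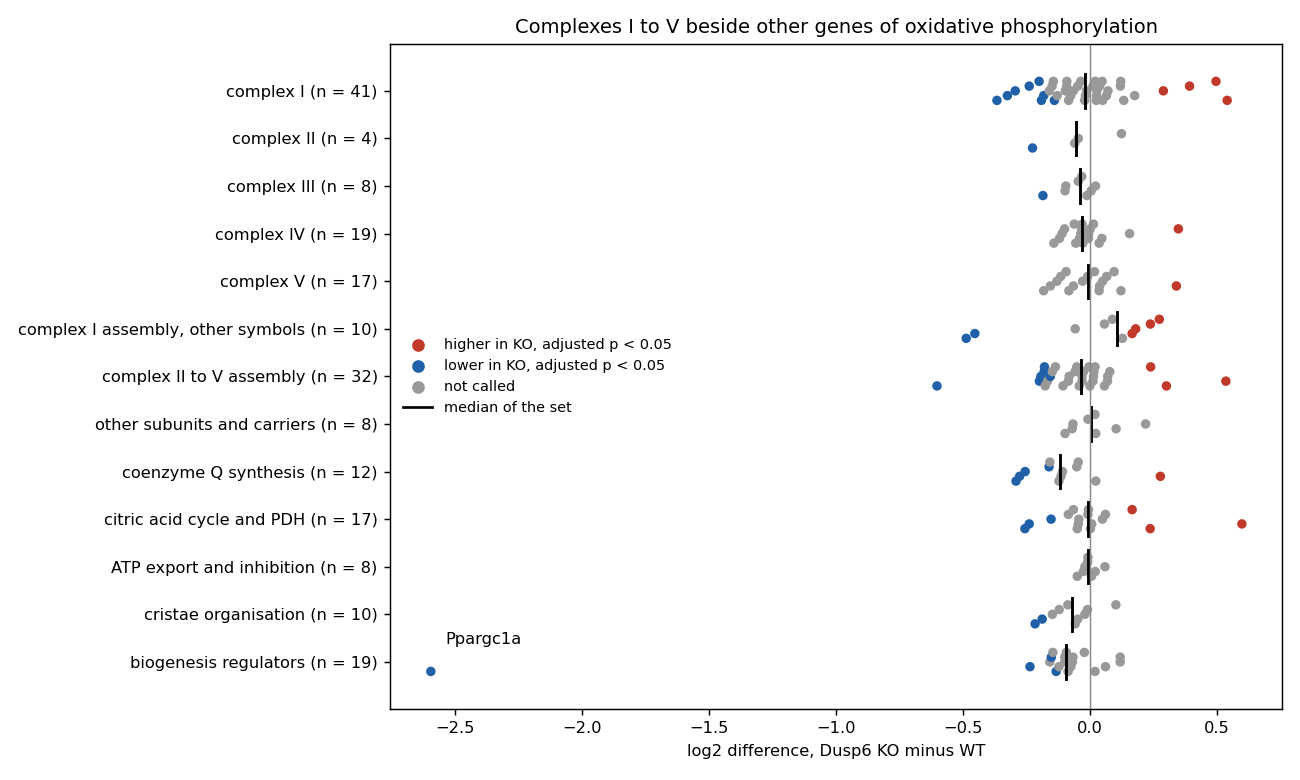
Log2 difference (knockout minus wild type) of every gene of complexes I to V and of 8 lists of other oxidative phosphorylation genes, 1 point per gene, with red and blue for genes called higher and lower and a black line at the median. Ppargc1a, at −2.59, lies far from all other points, and the complexes' medians lie between −0.053 and −0.009.

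Promoters of the members were searched for the motifs of factors known to act on respiratory genes, in RefSeq windows of GRCm38.p6 from 250 bases before to 50 after each start. Windows were found for 73 of the 89 genes. The NRF1 motif, GCGCA, any base and GCGC on either strand, was present in 18 of them (24.7%), against 5.19% of all 27025 genes with windows. The motif of ETS factors such as GABPA, CCGGAAG, was present in 18 (24.7%, against 9.93%), that of YY1, AANATGG followed directly by CGGC, in 4 (5.48%, against 1.17%), and that of the estrogen-related receptors that PGC-1alpha binds, TCAAGGTCA, in 2 (2.74%, against 0.466%). All were searched on both strands, none of them contains another, and a match is a description of the sequence, not a bound site. Of the 18 genes with the NRF1 motif 2 rose and 3 fell, with a median difference of −0.078. Of the 55 without it 3 rose and 5 fell (median −0.014). Of the 18 with the ETS motif 2 rose and 0 fell (median 0.017). Of the 4 with the YY1 motif 0 rose and 1 fell (0.003), and of the 2 with the estrogen-related receptor motif 0 rose and 0 fell (−0.087). Over all genes tested 9.66% rose and 10.2% fell, and no test was made between genes with and without a motif. Genes with the NRF1 motif thus stand among both the rises and the falls, and 4 such promoters are shown for that reason. They run from 250 bases before the start to the base before it, 5′ to 3′ on the gene's strand. NRF1 and ETS matches are in capitals. Ndufs5 and Cox6a1 rose, and Ndufa11 and Ndufa5 fell.
Ndufs5 (chr4:123718187-123718436, minus strand): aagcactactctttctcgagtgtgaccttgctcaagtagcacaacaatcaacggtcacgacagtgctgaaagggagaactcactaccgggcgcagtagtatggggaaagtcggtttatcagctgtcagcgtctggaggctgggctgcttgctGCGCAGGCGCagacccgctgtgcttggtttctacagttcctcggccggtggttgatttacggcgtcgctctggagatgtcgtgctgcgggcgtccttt
Cox6a1 (chr5:115348959-115349208, minus strand): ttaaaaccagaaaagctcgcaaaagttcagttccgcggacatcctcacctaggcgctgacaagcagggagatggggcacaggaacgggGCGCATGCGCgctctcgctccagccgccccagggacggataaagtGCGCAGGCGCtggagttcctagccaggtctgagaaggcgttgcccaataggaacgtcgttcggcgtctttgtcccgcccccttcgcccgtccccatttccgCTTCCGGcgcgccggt
Ndufa11 (chr17:56717512-56717761, plus strand): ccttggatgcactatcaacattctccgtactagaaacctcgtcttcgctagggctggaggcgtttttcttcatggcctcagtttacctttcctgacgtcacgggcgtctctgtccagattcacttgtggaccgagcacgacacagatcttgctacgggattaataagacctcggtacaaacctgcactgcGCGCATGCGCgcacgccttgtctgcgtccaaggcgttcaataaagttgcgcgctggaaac
Ndufa5 (chr6:24527691-24527940, minus strand): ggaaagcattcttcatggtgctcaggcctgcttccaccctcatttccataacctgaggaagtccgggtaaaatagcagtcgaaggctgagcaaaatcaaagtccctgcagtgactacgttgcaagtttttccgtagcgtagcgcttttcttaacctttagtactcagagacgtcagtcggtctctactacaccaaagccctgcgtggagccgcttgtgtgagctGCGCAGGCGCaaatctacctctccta
The NRF1 match begins at base -98 in Ndufs5, at -162 and -117 in Cox6a1, at -60 in Ndufa11 and at -26 in Ndufa5, counted from -1 for the base before the start. Ndufa5 has a further listed start, from which the same match lies at -190. In Cox6a1 an ETS match on the opposite strand begins at -16.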

How the data were processed

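Total RNA of 6 samples was measured on Affymetrix arrays. The authors deposited 1 log2 signal for each probe set on each array, made with RMA and Partek 6.5 per the submitters' processing notes. The sources used here do not give the version of RMA, its background setting or its level of summary. That the scale is log2 follows from the range (3.23 to 14.8, array medians 8.379 to 8.417), and the signals were tested as deposited. Precision is limited by the number of arrays, with a median standard error of 0.051 for a difference.

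The platform annotation gave exactly 1 symbol to 21789 of 35556 probe sets, several to 1621 and none to 12146. The probe set with the highest mean stood for a gene (19938 genes). The 89 members had 114 such probe sets; 6 further probe sets whose several symbols include a matching one were left out. All 89 Entrez identifiers were found in RefSeq (GRCm38.p6).

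The test was limma's moderated one (lmFit and eBayes, version 3.58.1, R version 4.3.3) with genotype as the only term over 6 arrays, and Benjamini-Hochberg adjustment covered all genes. All differences subtract wild type from knockout and carry limma's SE, and means carry the SD of 3 arrays. The procedure was also run on simulated data with independent noise and a small share of changed genes. These data have many more called genes, so that run does not test the results given here. Array values were given for called members (at most 8 per complex, by size) and the member with the smallest difference in each complex was named; Uqcrc2 and genes near the threshold were added after their values were seen. From other lists up to 4 called genes were named, or 1 where none was called, and further list members after their values were seen. Members, classes and lists were chosen with earlier results of these data known. Same-numbered arrays of the 2 genotypes did not deviate together (correlations 0.01, -0.117 and 0.053), so the numbers were not used as pairs.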

Additional observations from a re-analysis of the deposited data

How the results depend on the processing

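The alternatives were a repeated quantile step, each array's own median set to a common value, 2 filters on dim genes, the mean of a gene's probe sets, trend and robust options, the replicate number as a block, testing every probe set, and leaving out each array. Below, electron carrier stands for any gene of the list of 8 carriers and further genes of complexes III and IV. That list includes Higd1a, which is not a carrier. All genes called, the medians of the 89 genes and of complexes I to V, and the count in complex I stayed within 1.5 times or within the spread between arrays in each, although the median of complex V ran from -0.028 to 0.012 with arrays left out. The replicate block called 6 of the 89 genes higher and 7 lower (8.43% and 8.85% of all genes), 0 in complex III and 2 biogenesis regulators, and 1 electron carrier; it changed no other count by over 1.5 times. With trend and robust options 11 of the 89 rose (11% of all genes) and 25 were called, which is 28.1% against 23.1% of all genes and so above that share, where the main setting gave 18% against 19.8%; complexes II to V gave 2, 2, 2 and 3 calls, electron carriers 2 and mitochondrial DNA genes 1. Testing every probe set left 5 that fell (7.11% of all genes), 0 in complexes II and III, 2 regulators and 1 cristae gene. Repeated quantile normalization gave 2 calls each in complexes IV and V. Genes at or above the median signal (84 of the 89 tested, 22 called, 26.2% against 39.9% of all genes) gave 2 in complex IV, 3 in V, 1 electron carrier, 7 regulators and 1 mitochondrial DNA gene. Genes at or above the 25th percentile gave 2 in complex IV, 2 in V and 1 electron carrier, and the mean of probe sets 1 electron carrier.

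Over the fits with 1 array left out the genes that fell numbered 4 to 9, complex II gave 0 to 1 calls, complex III 0 to 1, complex IV 1 to 2, complex V 1 to 2, electron carriers 0 to 1, assembly factors of complexes II to V 5 to 8, regulators 2 to 4, cristae genes 1 to 2, myeloid and mast cell markers 1 to 2 and T and NK cell markers 0 to 1. The 16 called members kept the call in 191 fits and lost it in 32, and none of them changed sign. Differences near 0 did change sign. With arrays left out Ndufv2 lay between -0.019 and 0.033 (-0.009 without knockout replicate 2), Uqcrb between -0.035 and 0.049 (-0.025), Cox8c between -0.017 and 0.023 (-0.009, -0.004), Atp5b between -0.028 and 0.012 (0.002), Cox6a2 between -0.129 and 0.016 and Cox8a between -0.020 and 0.022 (0.002). Uqcrb was -0.002 and Cox8c -0.005 after the quantile step, and -0.006 and -0.011 after centring. The cause of these shifts was not tested. Over the alternatives 11.2% to 28.1% of the members were called, and 14.1% to 39.9% of all genes.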
